A study of Mus musculus with 15 samples.

Results

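The CARD-BCL10-MALT1 complex genes are Malt1, Bcl10, 3 genes of the CARD scaffold family (Card9, Card10 and Card14) and Traf2 and Traf6, which encode ubiquitin ligases that the assembled complex recruits. They were taken by symbol and make up 7 of the 55571 gene rows of the count table. Low counts removed Card9 before testing, so 6 of the 7 were among the 14571 genes tested. RNA was sequenced from E0771 cells, a mouse mammary carcinoma line, in 5 groups of 3 libraries. The Vector group carried an empty vector, which served as the control. The other groups carried the wild-type gene (Malt1_WT), a form labelled PD (Malt1_PD), or the substitutions V87R (Malt1_V87R) or L88D (Malt1_L88D), which fall in the N-terminal death domain of the protein. The labels do not spell out PD. Its 3 columns are named for a cysteine substitution and were assigned to that group because no other construct was without columns of its own name. All groups share the parental line and, per the series title, grew without T cells. The labels do not say whether a line is a pool or a clone, so a difference between lines cannot be told apart from an effect of a construct. Nor do they say that the replicates were separate cultures: p-values therefore rest on the scatter of libraries that may be technical repeats.

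A CARD scaffold that is switched on by a kinase binds BCL10 through the caspase recruitment domains of both proteins. BCL10 then grows into filaments, which MALT1 joins through its death domain. MALT1 in turn recruits TRAF6, whose ubiquitin chains activate the IKK kinase and NF-kB, and MALT1 is also a protease. The scaffold differs by cell type: CARD9 serves myeloid cells, CARD14 keratinocytes, and CARD10 epithelial and other non-blood cells.

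Card10 and Traf6 rose together in Malt1_WT and Malt1_PD while Traf2 did not, so the 250 bases before their start sites are shown for these 3 genes. The sequences are from RefSeq (GRCm38.p6), 5′ to 3′ on the strand of the gene, at chr2:101678170-101678419 (plus strand), chr15:78803043-78803292 (minus strand) and chr2:25546941-25547190 (minus strand). Capitals mark the GC box letters GGGCGG, or CCGCCC where they are read on the other strand.
Traf6: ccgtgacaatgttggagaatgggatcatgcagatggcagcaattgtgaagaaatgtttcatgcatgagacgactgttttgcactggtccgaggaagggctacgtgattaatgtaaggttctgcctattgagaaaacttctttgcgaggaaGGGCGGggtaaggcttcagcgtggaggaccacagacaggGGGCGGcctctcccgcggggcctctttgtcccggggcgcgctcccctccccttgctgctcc
Card10: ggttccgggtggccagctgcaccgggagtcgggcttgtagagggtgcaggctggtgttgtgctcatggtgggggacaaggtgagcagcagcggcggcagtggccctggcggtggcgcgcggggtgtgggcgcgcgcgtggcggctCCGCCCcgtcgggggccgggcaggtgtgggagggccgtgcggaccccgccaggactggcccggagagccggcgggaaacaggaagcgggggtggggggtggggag
Traf2: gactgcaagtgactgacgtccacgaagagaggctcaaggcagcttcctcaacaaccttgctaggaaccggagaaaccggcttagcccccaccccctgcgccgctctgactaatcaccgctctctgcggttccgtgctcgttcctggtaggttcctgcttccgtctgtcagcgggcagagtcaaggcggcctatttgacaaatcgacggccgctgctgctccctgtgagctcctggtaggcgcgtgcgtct
The Traf6 window held 2 GC boxes, the Card10 window 1 and the Traf2 window 0. Bcl10 rose with Traf6 and Card10, and its window, which held 2, is not printed because all 250 bases lie in annotated exons of the gene. The Card9 window held 0. Of all 32851 windows of this length in the table, 32.7% held at least 1. The Card10 window was 76.0% G and C, against 56.4% for Traf6, 62.4% for Bcl10, 60.8% for Traf2 and a median of 52.4% over all windows. Neither the kappa-B letters GGGNNTTCC nor the AP-1 letters TGANTCA were in the 300-base promoters (250 bases before and 50 after the start) of the 5 members in the table, which were these 3 with Bcl10 and Card9, so no match overlapped a GC box. On either strand, 5.82% of all promoters of that length held the kappa-B letters and 7.81% the AP-1 letters. Letters in a window are a description and not a binding site, and an absent match says only that these letters are not there. The GC box was chosen after the data were seen.

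Library totals ran from 15471746 to 21458457 counts. Levels are given as CPM, that is, counts per 1000000 of the library's total as adjusted by the TMM method, whose factors ran from 0.973 to 1.02. Unless another error is named, ± is the SD over n = 3 libraries, and log2 fold changes carry a standard error (SE). A gene was called where the edgeR quasi-likelihood test gave a Benjamini-Hochberg adjusted p under 0.05 over all tested genes. Of 8 epithelial markers only Krt8 (117 ± 8.62 CPM with the vector) and Epcam (9.75 ± 1.16 CPM) passed the low-count filter. Krt8 fell to 89.7 ± 3.97 CPM in Malt1_WT, 90.0 ± 2.47 CPM in Malt1_V87R and 95.1 ± 1.98 CPM in Malt1_L88D, and was not called in Malt1_PD (116 ± 2.40 CPM). Epcam fell in all 4 construct lines, to means between 5.67 and 7.58 CPM. Krt7, Krt18, Krt19, Cdh1, Cldn7 and Esrp1 never exceeded 13 counts in a library. Of 20 leukocyte markers, 7 passed it. The defining genes Ptprc and Cd3e reached at most 5 and 2 counts in a library, and the NK cell gene Ncr1 was at 0 in all 15. The summed level of the 20 ran from 29.2 to 31.3 CPM with the vector, 58.5 to 67.5 CPM in Malt1_WT, 64.6 to 68.3 CPM in Malt1_PD, 26.8 to 31.4 CPM in Malt1_V87R and 31.8 to 52.8 CPM in Malt1_L88D. Against the vector, Malt1_WT had 4 of the 7 higher, Malt1_PD 7, Malt1_L88D 3 and Malt1_V87R 0. Over all tested genes 27.2%, 22.8%, 8.96% and 7.01% were higher in these lines, in the same order. Of the 7, Adgre1 and C1qb had at most 5 and 2 counts in a Vector library. They passed the filter only through lines where they were high, so a call of higher was largely fixed for them. Most of the sum came from Cd68, Cd14 and Lyz2. Cd68 went from 12.1 ± 0.516 CPM with the vector to 25.2 ± 1.53 in Malt1_WT and 19.0 ± 1.13 in Malt1_PD. Cd14 went from 8.04 ± 0.250 to 23.5 ± 1.32 and 22.9 ± 0.477 CPM. Lyz2, at 5.66 ± 0.0643 CPM with the vector, was 4.64 ± 2.27 in Malt1_WT and 14.4 ± 1.38 in Malt1_PD. Leukocyte markers that failed the filter never exceeded 10 counts in a library. The summed level was thus highest in the lines in which most members rose, while Krt8 and Epcam fell in lines of both kinds. The part of these markers in the results was not tested.

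Malt1 checks the labels. It lies on chromosome 18 of GRCm38 (65430938 to 65479067, plus strand) and is protein coding, as are all 7 genes. The 3 Vector libraries held 26.4, 30.2 and 27.8 CPM. The Malt1_WT libraries held 208, 193 and 206 CPM, and the Malt1_PD libraries 260.0, 247 and 243 CPM. Those of Malt1_V87R held 279, 279 and 281 CPM, and those of Malt1_L88D 258, 245 and 251 CPM. All 12 construct libraries were far above the vector, and the groups rose in the order Vector, Malt1_WT, Malt1_PD, Malt1_L88D, Malt1_V87R. Against the vector the log2 fold change of Malt1_WT was 2.85 ± 0.05 (SE), that of Malt1_PD 3.15 ± 0.05, that of Malt1_V87R 3.32 ± 0.05 and that of Malt1_L88D 3.16 ± 0.05, with adjusted p of 7.5e-27 or less. The count sums transcripts of the construct and of the cells' own gene and does not read the substitutions. Because the RNA is from bulk cells, fewer expressing cells and less RNA per cell cannot be told apart, here and for every gene that follows.

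Malt1 levels also differed among the construct lines. All 3 mutant lines held more Malt1 mRNA than Malt1_WT, by 0.31 ± 0.04 (SE) on the log2 scale in Malt1_PD (adjusted p = 2.6e-06), 0.47 ± 0.04 in Malt1_V87R (adjusted p = 1.6e-10) and 0.32 ± 0.04 in Malt1_L88D (adjusted p = 3.5e-07). Malt1_V87R was also above Malt1_PD, by 0.16 ± 0.04 (adjusted p = 0.0021). Malt1_L88D and Malt1_PD overlapped and differed by 0.01, with a 95% interval from -0.08 to 0.09. Partner genes are described next, and some were lower in Malt1_V87R and Malt1_L88D than in Malt1_WT, beside more Malt1 mRNA. MALT1 protein was not measured here, and the part of the Malt1 level in those differences was not tested.

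**Figure D1:**
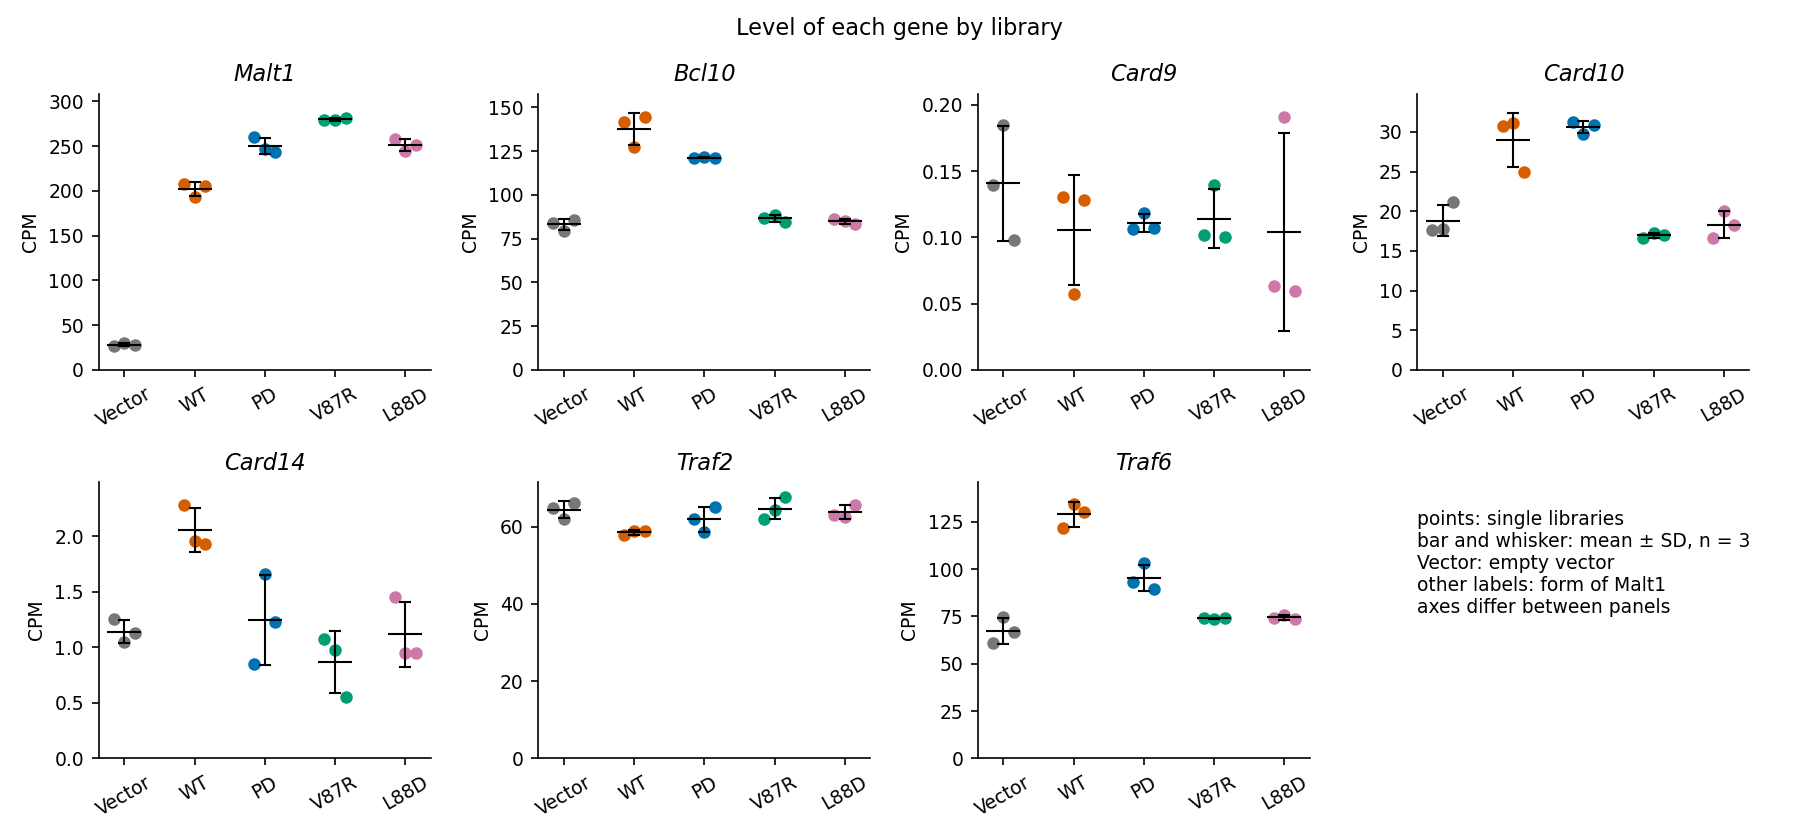
Level in CPM (y axis, from 0, with a different scale in each panel) of the 7 genes in every library, by group (x axis); points are libraries, and bars and whiskers the mean ± SD of 3. Malt1 is above the vector in all 12 construct libraries. Bcl10, Card10 and Traf6 are higher in every Malt1_WT and Malt1_PD library than in all other libraries. Traf2 keeps within 57.8 to 67.7 CPM throughout.

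Bcl10 encodes the adaptor that polymerises between scaffold and MALT1 (chromosome 3, 145922804 to 145934356, plus strand). Its 3 libraries held 83.8, 79.6 and 85.9 CPM with the vector, 142, 127 and 144 CPM in Malt1_WT, and 121.3, 121.5 and 121.1 CPM in Malt1_PD. In Malt1_V87R they held 86.9, 88.2 and 84.5 CPM and in Malt1_L88D 86.4, 85.1 and 83.5 CPM. Every Malt1_WT and Malt1_PD library was above every other library, and Malt1_V87R and Malt1_L88D overlapped the vector. Bcl10 rose against the vector by 0.73 ± 0.05 (SE) in Malt1_WT (1.66-fold, adjusted p = 1.1e-13) and by 0.54 ± 0.05 in Malt1_PD (1.46-fold, adjusted p = 8.6e-11). The difference from the vector was 0.06 in Malt1_V87R, with a 95% interval from -0.04 to 0.15, and 0.03 in Malt1_L88D, with an interval from -0.07 to 0.13. The rise was smaller in Malt1_PD than in Malt1_WT, by 0.18 ± 0.05 (SE, adjusted p = 0.0041), with no overlap of the libraries.

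Since MALT1 acts bound to BCL10, the mRNA of both was also compared within each library. Levels of different genes were compared only per kilobase (kb) of annotated exons, using the union of all exons (18040 bases for Malt1 and 4564 for Bcl10), the longest transcript (6404 and 2368 bases) or the longest coding sequence (2496 and 699 bases). By the union of exons, Malt1 stood at 0.0860 ± 0.00880 of the Bcl10 level with the vector. The ratio was 0.372 ± 0.0114 in Malt1_WT and 0.522 ± 0.0184 in Malt1_PD. It reached 0.818 ± 0.0216 in Malt1_V87R and 0.749 ± 0.0184 in Malt1_L88D. The libraries of the 5 groups did not overlap in this ratio. By the longest transcript it ran, in the same order of groups, 0.126, 0.543, 0.762, 1.20 and 1.09, and by coding sequence 0.0952, 0.411, 0.577, 0.906 and 0.829. The order of the groups was the same by all 3 lengths, while the side of 1 on which Malt1_V87R and Malt1_L88D fell was not. The length of the construct's own transcript is not given in the sources used here, so the level of the ratio is uncertain, and it says nothing of protein. The ratio combines 2 genes already tested and was given no test of its own.

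**Figure D2:**
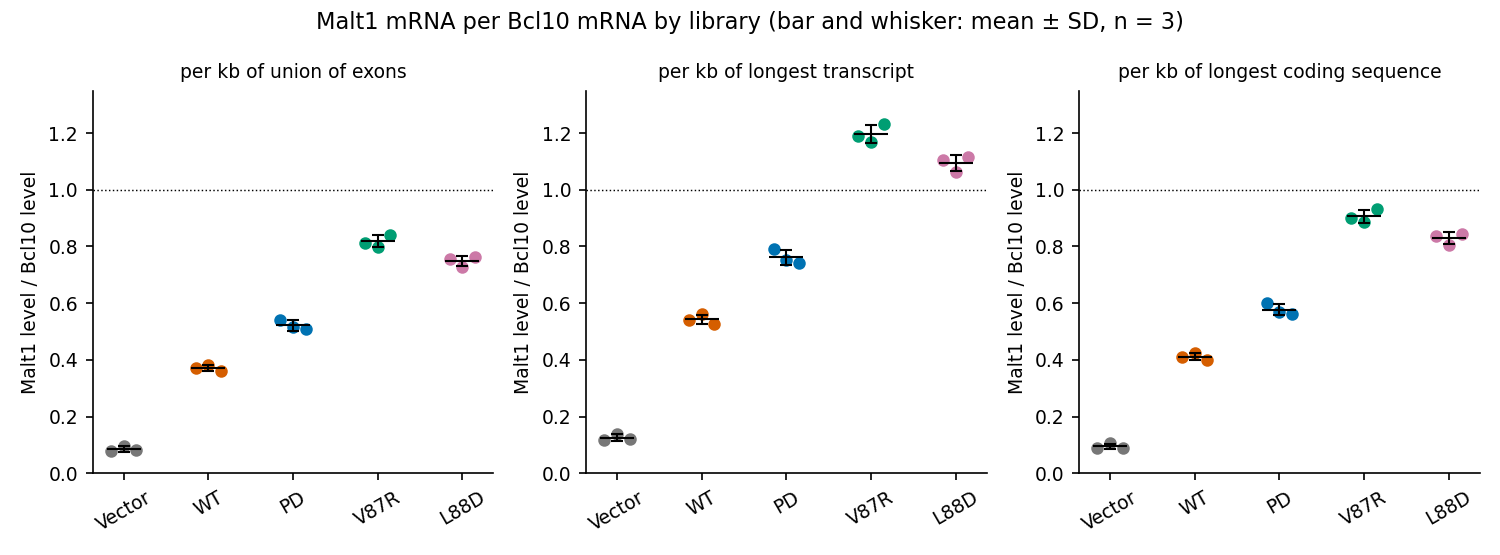
Malt1 level divided by Bcl10 level in each library (y axis, no unit), by group (x axis), with both levels per kb of the union of exons (left), the longest transcript (middle) or the longest coding sequence (right); the dotted line marks equal levels and bars and whiskers the mean ± SD of 3. The groups keep 1 order in all panels, from 0.0860 with the vector to 0.818 in Malt1_V87R by the union of exons.

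Among the CARD scaffolds, Card10 was the most abundant per kb of exons, at 3.80 ± 0.401 CPM per kb with the vector, against 0.248 ± 0.0230 for Card14 and 0.0613 ± 0.0188 for Card9. The Card10 product, also known as CARMA3, links G protein-coupled and growth factor receptors to BCL10 (chromosome 15, 78775138 to 78803042, minus strand). The libraries held 17.6, 17.8 and 21.1 CPM with the vector, 30.7, 31.2 and 25.0 CPM in Malt1_WT and 31.2, 29.8 and 30.8 CPM in Malt1_PD. They held 16.6, 17.2 and 17.1 CPM in Malt1_V87R and 16.6, 20.0 and 18.3 CPM in Malt1_L88D. The lowest Malt1_WT library, at 25.0 CPM, was still above the highest library of the vector, Malt1_V87R and Malt1_L88D. Card10 rose by 0.62 ± 0.09 (SE) in Malt1_WT (adjusted p = 5.8e-07) and 0.70 ± 0.09 in Malt1_PD (adjusted p = 7.1e-08). These 2 groups overlapped and differed by 0.08 (95% interval -0.09 to 0.25). In Malt1_V87R the difference from the vector was -0.15 (interval -0.34 to 0.03) and in Malt1_L88D -0.04 (interval -0.22 to 0.15), and neither was called.

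The scaffold genes of other cell types were scarce. Card9 (chromosome 2, 26352176 to 26360918, minus strand) had 1 to 4 counts in every library and 32 in all. The level that 3 counts make ran from 0.139 to 0.196 CPM over the libraries, and the Card9 group means ran from 0.104 CPM in Malt1_L88D to 0.141 CPM with the vector. It was not tested, and a difference between groups was not detectable at this depth.

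Card14 (chromosome 11, 119307768 to 119345375, plus strand) had 11 to 35 counts in each library. Its level was 1.25, 1.04 and 1.13 CPM with the vector and 2.28, 1.96 and 1.93 CPM in Malt1_WT. Malt1_PD held 0.850, 1.66 and 1.23 CPM, Malt1_V87R 1.07, 0.977 and 0.552 CPM and Malt1_L88D 1.45, 0.952 and 0.947 CPM. All 3 Malt1_WT libraries were above the other 12, which overlapped. Card14 rose in Malt1_WT by 0.83 ± 0.28 (SE, adjusted p = 0.013). For Malt1_PD the difference from the vector was 0.11 (95% interval -0.50 to 0.72), for Malt1_V87R -0.40 (interval -1.04 to 0.23) and for Malt1_L88D -0.06 (interval -0.68 to 0.57). The Malt1_WT estimate of 0.83 lay above all 3 intervals, but it has an error of its own. Whether the lines differ is therefore read from the direct comparisons with Malt1_WT. Malt1_PD was below Malt1_WT by 0.73 ± 0.28 (SE), which was not called at adjusted p = 0.059. It was called without Malt1_PD replicate 2, the highest of its group, at -0.98 and adjusted p = 0.018. Without Malt1_PD replicate 1, the lowest, it was -0.52 (adjusted p = 0.27), and the difference from the vector was 0.33 (adjusted p = 0.43), whereas without replicate 2 the latter was -0.13 (adjusted p = 0.79). Card14 shares 955 exon bases, 20.7% of its exons, with Sgsh on the opposite strand, which had 141 to 251 counts in each library. The library kit marks strand, but the strand setting of the counting is not given in the sources used here, so Card14 counts are uncertain.

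Traf6 encodes the ubiquitin ligase that binds MALT1 (chromosome 2, 101678429 to 101701669, plus strand). Its libraries held 60.8, 74.5 and 66.7 CPM with the vector and 122, 135 and 130.3 CPM in Malt1_WT. Malt1_PD held 93.2, 103 and 89.5 CPM, Malt1_V87R 74.4, 73.5 and 73.9 CPM and Malt1_L88D 74.4, 75.8 and 73.5 CPM. The groups fell into 3 levels without overlap, Malt1_WT highest, Malt1_PD between and the other 3 lowest. The rise against the vector was 0.94 ± 0.06 (SE) in Malt1_WT (1.92-fold, adjusted p = 8.2e-14) and 0.50 ± 0.06 in Malt1_PD (1.42-fold, adjusted p = 4.7e-08), and Malt1_PD was below Malt1_WT by 0.44 ± 0.06 (adjusted p = 1.7e-06). Malt1_V87R and Malt1_L88D differed from the vector by 0.14 ± 0.06 (adjusted p = 0.15) and 0.15 ± 0.06 (adjusted p = 0.088), and neither was called. Both 95% intervals nevertheless lay wholly on the side of a rise, whereas those of Bcl10 and Card10 in these lines included no change. Vector replicate 2 lay within the range of those lines. Without it the differences were 0.21 (adjusted p = 0.016) and 0.23 (adjusted p = 0.0072), and both were called. Without Vector replicate 1, the lowest of its group, they were 0.07 (adjusted p = 0.59) and 0.09 (adjusted p = 0.41).

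Traf2 encodes a ligase of TNF receptor signalling that can also join the complex (chromosome 2, 25517982 to 25546940, minus strand). The libraries held 65.0, 62.0 and 66.2 CPM with the vector, 57.8, 59.0 and 58.8 CPM in Malt1_WT and 62.0, 58.6 and 65.2 CPM in Malt1_PD. They held 62.1, 64.4 and 67.7 CPM in Malt1_V87R and 63.1, 62.5 and 65.7 CPM in Malt1_L88D. Only Malt1_WT lay clear of the vector, below it, by -0.14 ± 0.05 (SE, adjusted p = 0.025). That call was lost when any 1 of Malt1_WT replicates 1, 2 and 3 or Vector replicates 1 and 3 was left out (adjusted p from 0.084 to 0.17), and with DESeq2 (adjusted p = 0.061) or no low-count filter (adjusted p = 0.057). The differences from the vector were -0.06 in Malt1_PD (95% interval -0.16 to 0.05), 0.01 in Malt1_V87R (interval -0.10 to 0.11) and -0.02 in Malt1_L88D (interval -0.12 to 0.09).

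Counted over the 6 tested members, 5 rose and 1 fell in Malt1_WT against the vector, where 27.2% of all tested genes rose and 27.7% fell. In Malt1_PD 4 rose and 0 fell, against 22.8% and 22.0% of all tested genes. In Malt1_V87R 1 rose, Malt1 itself, and 0 fell, against 7.01% and 4.70%. In Malt1_L88D 1 rose, again Malt1, and 0 fell, against 8.96% and 8.43%. Malt1 is the gene that was put into the cells, so its own rise checks the lines and is no result in any of the 4 counts. Without it, the rises were those of Bcl10, Card10, Card14 and Traf6 in Malt1_WT and of Bcl10, Card10 and Traf6 in Malt1_PD. In Malt1_V87R and Malt1_L88D 0 of its 5 tested partners were called. With 5 genes, a count of 0 against the shares of all tested genes in these lines does not set the partners apart. The 6 members, Malt1 included, had a median log2 fold change of 0.78 in Malt1_WT (-0.01 over all tested genes) and 0.52 in Malt1_PD (-0.0037 over all). For Malt1_V87R the median was 0.03 (-0.0024 over all) and for Malt1_L88D 0.01 (-0.0058 over all). These 4 comparisons share the 3 Vector libraries.

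**Figure D3:**
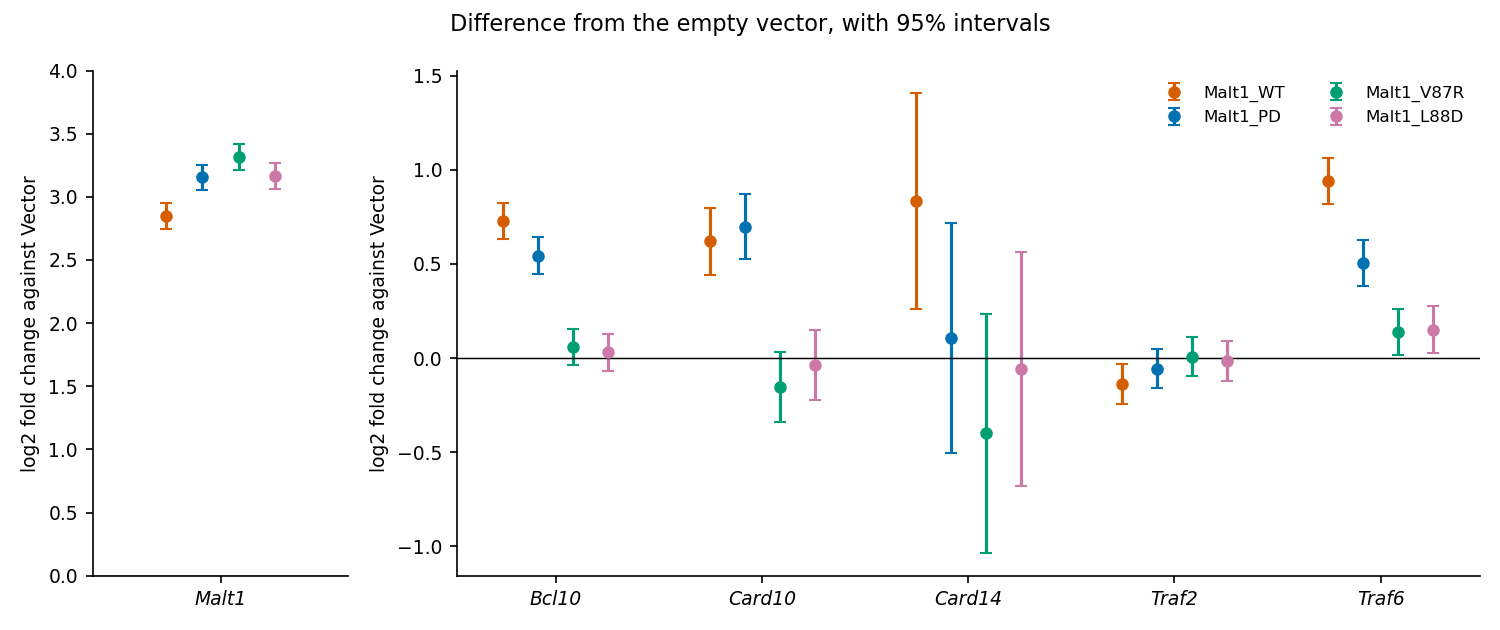
Log2 fold change against the vector (y axis) of Malt1 (left) and the other 5 tested genes (right, on a different scale) in the 4 construct lines; points are estimates from 3 against 3 libraries and bars 95% intervals. For Bcl10, Card10 and Traf6 the intervals of Malt1_WT and Malt1_PD lie above 0, while Bcl10 and Card10 in Malt1_V87R and Malt1_L88D span it. Those of Traf6 in Malt1_V87R and Malt1_L88D lie slightly above 0, though neither difference was called.

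The 4 construct lines were then compared with each other, which asked how the lines differ and not what each form of Malt1 does. In Malt1_PD against Malt1_WT, 1 member was higher (Malt1) and 2 were lower (Bcl10 and Traf6), against 12.6% and 10.7% of all tested genes, with a median of -0.05 against 0.01 over all. In Malt1_V87R against Malt1_WT, 2 were higher (Malt1 and Traf2) and 4 lower, against 24.9% and 23.4%. Bcl10 was lower by 0.67 ± 0.05 (SE), Traf6 by 0.80 ± 0.06, Card10 by 0.77 ± 0.09 and Card14 by 1.24 ± 0.29 on the log2 scale, with adjusted p of 0.00077 or less. The median of the 6 was -0.72, against 0.02 over all tested genes. Traf2 was higher by 0.14 ± 0.05 (adjusted p = 0.022), which was not called with DESeq2 (adjusted p = 0.057) or when any 1 of Malt1_V87R replicates 2 and 3 and Malt1_WT replicates 1, 2 and 3 was left out (adjusted p from 0.069 to 0.19). Without Malt1_V87R replicate 3 the difference was 0.10.

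In Malt1_L88D against Malt1_WT, 1 member was higher (Malt1) and 4 lower, against 22.8% and 22.3% of all tested genes. Bcl10 was lower by 0.70 ± 0.05 (SE), Traf6 by 0.79 ± 0.06, Card10 by 0.66 ± 0.09 and Card14 by 0.89 ± 0.29, with adjusted p of 0.011 for Card14 and 3.9e-07 or less for the others. The median of the 6 was -0.68, against 0.02 over all tested genes. The Card14 call was lost without Malt1_L88D replicate 2 (adjusted p = 0.053). Traf2 was 0.12 ± 0.05 higher and not called (adjusted p = 0.056). Against Malt1_PD, Malt1_V87R had 1 member higher (Malt1) and 3 lower, where 20.4% and 21.1% of all tested genes were. Malt1_L88D had 0 higher and 3 lower, where 20.0% and 21.4% were. The 3 were Bcl10, Card10 and Traf6 in both, with log2 differences of -0.49, -0.85 and -0.37 in Malt1_V87R and -0.51, -0.74 and -0.35 in Malt1_L88D.

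Between the neighbouring substitutions, no member was called in Malt1_V87R against Malt1_L88D, where 0% of all tested genes were called higher and 0% lower. With edgeR, 852 of the 14571 genes had an unadjusted p under 0.05. DESeq2 also called 0 (591 genes under 0.05 unadjusted), as did limma-voom (893 genes), while edgeR called 25 genes on these 6 libraries alone, 5 with no low-count filter and 2 without Malt1_L88D replicate 1. Malt1 was among the 25: it was 0.15 ± 0.04 (SE) higher in Malt1_V87R, with no overlap of the libraries and an unadjusted p of 0.00091, at adjusted p = 0.66 over all libraries and 0.022 in the 6 alone. For the partners the 95% intervals of the log2 difference were -0.07 to 0.12 for Bcl10, -0.13 to 0.11 for Traf6, -0.30 to 0.07 for Card10, -0.08 to 0.13 for Traf2 and -0.99 to 0.31 for Card14. The interval is narrow for Bcl10, Traf6 and Traf2 and wide for Card14.

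Genes around the complex were described from lists of its known inputs and outputs. Of 20 receptors, adaptors and kinases that feed the CARD scaffolds, 16 were tested. In Malt1_WT 8 rose and 5 fell, in Malt1_PD 7 rose and 6 fell, in Malt1_V87R 3 rose and 0 fell and in Malt1_L88D 5 rose and 0 fell. Over all tested genes, 27.2% rose and 27.7% fell in Malt1_WT, 22.8% and 22.0% in Malt1_PD, 7.01% and 4.70% in Malt1_V87R, and 8.96% and 8.43% in Malt1_L88D. The list's median log2 fold changes were 0.35, 0.28, 0.09 and 0.11, against -0.01, -0.0037, -0.0024 and -0.0058 over all tested genes, and the counts and medians of the next 3 lists stand against the same values. Clec4e, a C-type lectin receptor that signals through SYK and CARD9, went from 3.86 ± 0.602 CPM with the vector to 63.9 ± 7.98 CPM in Malt1_WT and 45.5 ± 3.45 CPM in Malt1_PD. It was also called at 8.29 ± 0.265 CPM in Malt1_V87R and 7.89 ± 0.768 CPM in Malt1_L88D, a much smaller rise. Its scaffold Card9 stayed at 1 to 4 counts in every library, and its relatives Clec7a and Clec4n never exceeded 4 and 10 counts. Its relative Clec4d, named after its values were seen, also rose, from 1.65 ± 0.247 to 4.24 ± 0.554 CPM in Malt1_WT, 3.46 ± 0.548 CPM in Malt1_PD and 2.72 ± 0.401 CPM in Malt1_L88D, and was not called in Malt1_V87R (2.35 ± 0.436 CPM). Fcer1g, the signalling adaptor of such receptors and likewise named afterwards, fell from 16.9 ± 1.11 to 13.0 ± 1.94 CPM in Malt1_WT and 14.1 ± 1.00 CPM in Malt1_PD.

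Among them were inputs of CARD10. Egfr, the epidermal growth factor receptor, went from 5.94 ± 0.0955 CPM with the vector to 16.3 ± 1.92 CPM in Malt1_WT and 11.8 ± 1.33 CPM in Malt1_PD, and was not called in Malt1_V87R (6.85 ± 1.12 CPM) or Malt1_L88D (7.40 ± 0.255 CPM). Prkcd, a protein kinase C, went from 65.8 ± 2.09 to 103 ± 1.93 and 101 ± 3.27 CPM and was not called in Malt1_V87R (69.1 ± 2.93 CPM) or Malt1_L88D (70.7 ± 1.86 CPM). Syk, the kinase behind CARD9, went from 60.8 ± 2.31 to 84.4 ± 2.28 and 80.9 ± 1.66 CPM. Syk was at 66.8 ± 1.22 CPM in Malt1_V87R and 67.7 ± 3.56 CPM in Malt1_L88D, with every library of both above every Vector library. Il17ra, the interleukin-17 receptor chain, was named after its values were seen: it fell by 0.33 in Malt1_WT and by 0.19 in Malt1_PD and rose by 0.20 in Malt1_V87R and 0.22 in Malt1_L88D on the log2 scale, all called.

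**Figure D4:**
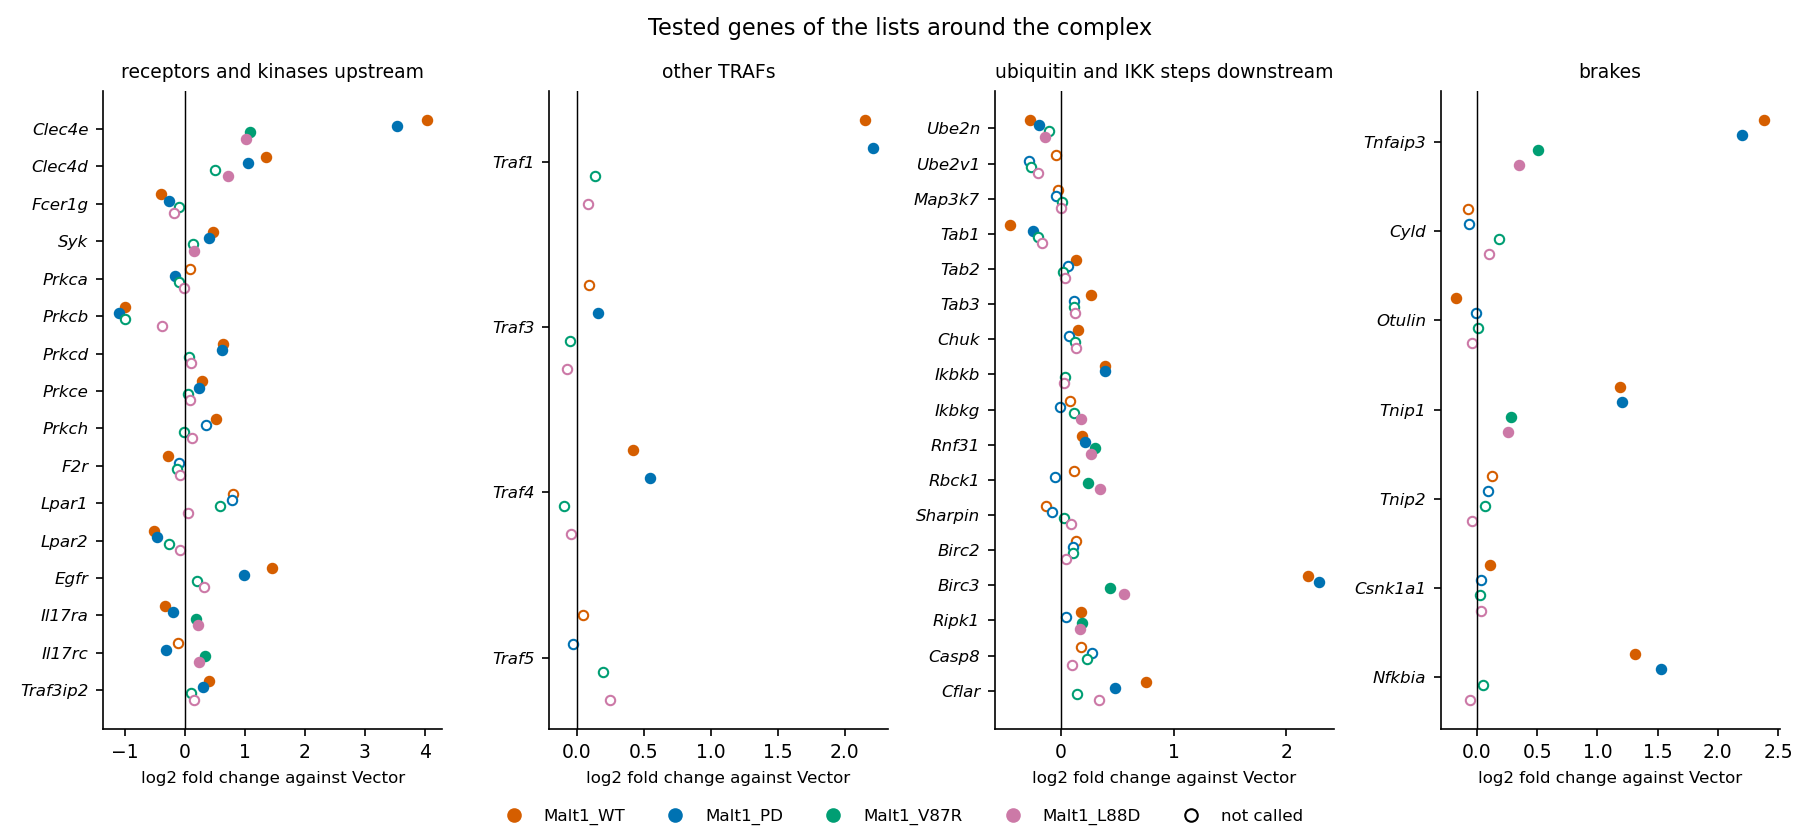
Log2 fold change against the vector (x axis) of each tested gene of the 4 lists around the complex (rows), by construct line (colour); filled points are called (adjusted p under 0.05) and open points are not. The largest changes are in Malt1_WT and Malt1_PD, in Clec4e, Traf1, Birc3 and Tnfaip3.

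The rest of the TRAF family differed from gene to gene. Of 4 other TRAF genes, 2 rose in Malt1_WT, 3 in Malt1_PD and 0 in Malt1_V87R and Malt1_L88D, and 0 fell in any (medians 0.26, 0.36, 0.04 and 0.02). Over all tested genes 27.2% rose and 27.7% fell in Malt1_WT, and 22.8% and 22.0% in Malt1_PD. With 4 genes, a count of 0 in Malt1_V87R and Malt1_L88D against 7.01% and 8.96% of all tested genes does not set the list apart. Traf1, which binds TRAF2 and is a known NF-kB target, went from 26.0 ± 3.48 CPM with the vector to 116 ± 1.81 CPM in Malt1_WT and 121 ± 3.91 CPM in Malt1_PD. It was 28.8 ± 1.69 CPM in Malt1_V87R and 27.8 ± 0.716 CPM in Malt1_L88D. Traf4 went from 36.3 ± 1.46 to 48.8 ± 3.02 and 53.2 ± 3.60 CPM. Traf1 thus changed by 2.15 on the log2 scale in Malt1_WT, against 0.94 for Traf6 and -0.14 for Traf2.

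Of 17 genes for ubiquitin enzymes, the TAK1 and IKK kinases and caspase-8 partners, 8 rose and 2 fell in Malt1_WT, 4 and 2 in Malt1_PD, 4 and 0 in Malt1_V87R, and 5 and 1 in Malt1_L88D (medians 0.14, 0.06, 0.12 and 0.10). Over all tested genes 27.2% rose and 27.7% fell in Malt1_WT, and 22.8% and 22.0% in Malt1_PD. The shares were 7.01% and 4.70% in Malt1_V87R, and 8.96% and 8.43% in Malt1_L88D. The 4 of 17 that rose in Malt1_PD are close to its 22.8%. Birc3, a ubiquitin ligase that binds TRAF2, went from 6.83 ± 0.490 CPM with the vector to 31.4 ± 1.90 CPM in Malt1_WT and 33.4 ± 1.19 CPM in Malt1_PD, and rose to 9.29 ± 1.24 CPM in Malt1_V87R and 10.1 ± 0.414 CPM in Malt1_L88D. Ikbkb, a catalytic IKK subunit, went from 76.6 ± 2.57 to 101 ± 3.64 and 100.2 ± 1.99 CPM in Malt1_WT and Malt1_PD. Ube2n, the conjugating enzyme that TRAF6 uses, fell from 169 ± 1.94 CPM with the vector to 139 ± 1.75 CPM in Malt1_WT and 148 ± 3.37 CPM in Malt1_PD. Tab1, an activator of TAK1, fell from 33.9 ± 4.0 to 24.9 ± 1.62 and 28.7 ± 3.02 CPM. The Malt1_V87R calls were Birc3, Ripk1 and the linear ubiquitin ligase genes Rnf31 and Rbck1, and those of Malt1_L88D were the same 4 and Ikbkg, with Ube2n lower. Ripk1, Rnf31, Rbck1 and Ikbkg were named after their values were seen.

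Of 7 genes that restrain the pathway, 4 rose and 1 fell in Malt1_WT, 3 rose in Malt1_PD and 2 in each of Malt1_V87R and Malt1_L88D, with 0 falling in those 3. Over all tested genes 27.2% rose and 27.7% fell in Malt1_WT, 22.8% and 22.0% in Malt1_PD, 7.01% and 4.70% in Malt1_V87R, and 8.96% and 8.43% in Malt1_L88D. The medians in the 4 lines were 0.13, 0.09, 0.07 and 0.03. Tnfaip3, which encodes the deubiquitinase A20, went from 28.8 ± 0.168 CPM with the vector to 151 ± 3.05 CPM in Malt1_WT and 133 ± 3.99 CPM in Malt1_PD. It also rose to 40.9 ± 3.44 CPM in Malt1_V87R and 36.8 ± 2.77 CPM in Malt1_L88D. Tnip1, a partner of A20, went from 193 ± 9.90 CPM to 441 ± 16.2, 444 ± 28.4, 236 ± 11.0 and 231 ± 5.80 CPM in the same order. Nfkbia, which encodes the NF-kB inhibitor IkBa, rose to 589 ± 22.4 and 685 ± 29.5 CPM from 237 ± 4.64 CPM and was not called in Malt1_V87R (246 ± 1.94 CPM) or Malt1_L88D (228 ± 9.25 CPM). Otulin, a deubiquitinase of linear chains, fell to 40.3 ± 1.47 from 45.4 ± 2.76 CPM in Malt1_WT and was not called in the other lines. Unlike Bcl10 and Card10, Tnfaip3, Tnip1 and Birc3 were thus called in all 4 construct lines. That contrast compares calls, and the difference between the genes was not tested.

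The genes most like each member were ranked by the root mean square difference of their 4 log2 fold changes against the vector, over 9365 genes of at least 5 CPM on average. For Bcl10 these were Nbeal2 (0.03) and Psmd8 (0.03), and 134 genes lay within 0.1. Psmd8, a subunit of the proteasome, was at 226 ± 6.44 CPM with the vector, 380.0 ± 11.9 CPM in Malt1_WT and 342 ± 19.5 CPM in Malt1_PD. For Card10 they were Neu1 (0.03) and Zfand2a (0.05), with 36 genes within 0.1. For Traf6 they were Pqlc1 (0.03) and Txnrd1 (0.05), with 44. Txnrd1, the cytosolic thioredoxin reductase, was at 328 ± 10.2 CPM with the vector. It was at 648 ± 18.6 CPM in Malt1_WT and 468 ± 6.49 CPM in Malt1_PD. In Malt1_V87R it was at 353 ± 9.49 CPM and in Malt1_L88D at 344 ± 7.59 CPM. All these genes were picked for their likeness to a member, so that likeness is no result of its own.

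The remaining members sat at the extremes of that ranking. For Traf2, which hardly changed, 1833 genes lay within 0.1, Cep76 and Ggnbp2 nearest (0.01 each). For Card14 none did, and Rgs9 (0.13) and Celf2 (0.14) were nearest. Card14 had only 11 to 35 counts in each library, and the errors of its fold changes exceed 0.1. Its level was also below the 5 CPM asked of the genes compared. The lack of a near gene therefore does not set Card14 apart. Malt1 also had no gene within 0.1. Its nearest genes, the interferon-inducible GTPases Gbp5 (0.92) and Ifi47 (0.98), were high in Malt1_WT, Malt1_V87R and Malt1_L88D, with log2 fold changes of 3.40, 2.81 and 2.68 for Gbp5 and 2.86, 3.21 and 3.09 for Ifi47. In Malt1_PD they stood at 1.54 and 1.19, whereas Malt1 was at 3.15. Gbp5 belongs to a family of related genes. Whether reads were shared within it was not examined, and the treatment of multiply mapped reads is not given, so its values keep that uncertainty.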

How the data were processed

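RNA from 15 libraries (5 groups of 3) was sequenced with a kit that keeps strand, NEBNext Ultra II Directional, and paired reads, per the labels' protocols. The authors deposited raw counts per gene symbol, made with Trim Galore 0.6.0, STAR 2.7.3a and featureCounts 1.6.3 on GRCm38.p6, per the submitters' processing notes. For the annotation release, the strand option and the treatment of multiply mapped reads, the value is not given in the sources used here. Reads shared between near-identical genes or, without strand, overlapping ones could move counts. The annotation used for positions and lengths was GENCODE M21.

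Genes were filtered with filterByExpr, scaled by TMM and tested in R 4.3.3 with edgeR 4.0.16 (robust quasi-likelihood fit of all 15 libraries, 1 mean per group, 10 two-sided comparisons, each adjusted over all tested genes with a threshold of 0.05). The test was tried on simulated data. Alternatives were DESeq2 1.42.0, limma-voom (limma 3.58.1), RLE scaling, no filter, only the 6 libraries compared, a replicate block and leaving out each library. Upper-quartile scaling and coding length were added after the data were seen. Replicates differed by more than counting noise in all 15 pairs. The floor of 3 counts covers counting error only. The members and lists were chosen with earlier results of these data known. Named genes were the members, up to 4 called genes of smallest adjusted p in Malt1_WT against Vector from each list, and the 2 genes most like each member.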

Additional observations from a re-analysis of the deposited data

How the results depend on the processing

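The counts of members called were within 1.5 times their main value in 126 of 130 repeats. The exceptions were 2 for Malt1_V87R against Vector and 2 for Malt1_L88D against Vector without Vector replicate 2 (ranges of 1 to 2 over the libraries left out), 2 for Malt1_L88D against Vector with a replicate block, and 1 for Malt1_V87R against Malt1_L88D with only the 6 libraries compared. The second member in the first 3 was Traf6 (with the replicate block, adjusted p = 0.033), the last was Malt1. Of 780 repeats on single members, 758 kept their call, 14 lost one and 8 gained one, and none of the called values changed sign. Those that changed were of Traf2, Traf6, Card14 and, once, Malt1. Besides those named in the results, Card14 in Malt1_PD against Malt1_WT was called with limma-voom (adjusted p = 0.043), and Traf2 in Malt1_L88D against Malt1_WT with the 6 libraries alone (adjusted p = 0.047) and the replicate block (adjusted p = 0.036). The replicate numbers paired the libraries in part: of 30 correlations of deviations between groups, 10 were over 0.1, with a range from -0.13 to 0.53. Replicates 1 and 2 of Vector, Malt1_WT and Malt1_PD deviated together, with correlations from 0.29 to 0.53. Malt1_V87R replicate 2 deviated with theirs, at 0.22 to 0.36. Malt1_L88D showed no such pairing, and the main fit had no block. The block therefore rests on a hint from the data only, as the labels do not say that a replicate number marks a batch. Where leaving out a library left 2 in a group, the spread was still pooled over all groups. Depth limits Card9 and Card14, and the annotated length limits the ratio of Malt1 to Bcl10. Levels per kb moved with the length used by more than the replicate spread for most genes.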
